A study of Mus musculus with 50 samples.

Results

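A set of 10 genes that the transcription factor p53 is known to activate was followed through 8 RNA-seq libraries of mouse cells with and without Repeat B of Xist. The members were Cdkn1a, Mdm2, Ccng1, Trp53inp1, Sesn2, Bax, Bbc3, Phlda3, Zmat3 and Eda2r, taken by symbol from the deposited gene count tables, 10 of the 24391 genes listed there. Xist is the non-coding RNA that coats and silences 1 of the X chromosomes of female cells, and Repeat B is a tandem repeat within it that recruits Polycomb complexes. Of these libraries, 6 came from embryonic stem (ES) cells that had formed embryoid bodies for 4 days and then grown on plates for 10 days, with 2 wild-type, 2 RepB+/- and 2 RepB-/- libraries. The other 2 came from mouse embryonic fibroblasts (MEF), 1 wild type and 1 labelled as having lost Repeat B (MEF RepB). All 8 come from a cross of the CAST/Ei and 129/Sv/Jae strains, so part of the reads could be given by the authors to the 129 or the CAST chromosome. In the ES libraries, though not in MEF, such reads were almost wholly 129 on most of the members' autosomes. The labels do not say whether MEF RepB lost the repeat from 1 or both chromosomes, which chromosome lost it in RepB+/-, or whether replicates were separate cultures, so p-values measure only the spread between these libraries. No allele or treatment that acts on p53 is named in the labels.

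p53 is a transcription factor that cells hold at a low level through Mdm2, a ubiquitin ligase that marks p53 for destruction and is itself a p53 target. DNA damage and other stresses release p53, which then binds DNA and raises genes that stop the cell cycle, restrain growth signalling or start apoptosis. Differentiated cells and fibroblasts in culture keep a basal output of this pathway. The members divide into cell cycle genes (Cdkn1a, Ccng1), the feedback gene Mdm2, genes of apoptosis and survival signalling (Bax, Bbc3, Phlda3, Trp53inp1), genes of growth control and RNA stability (Sesn2, Zmat3) and the cell surface receptor gene Eda2r.

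The upstream sequences are shown because p53 acts on its targets through a DNA element that often lies near their start sites. A p53 site is made of a pair of 10-base units, and each unit is a run of purines, then C, A or T in both middle places, G, and a run of pyrimidines. Upstream windows of 250 bases were available from RefSeq (build GRCm38.p6) for 8 of the 10 members, 11 windows in all because Cdkn1a and Bbc3 have more than 1 start site, and Trp53inp1 and Zmat3 are named only. A pair of units on either strand, at most 1 base apart and with at most 2 mismatches to the p53 motif in all, was found in 3 of the 11 windows, each of another member, and in 0.551% of all 32851 windows of the same length. The rule for pairs was set after seeing the promoter windows, so the count of 3 is no independent check against that 0.551%. A match describes letters and not binding, and a unit of such a pair is also counted singly below. The 250 bases before the start sites of these 3 genes follow, 5′ to 3′ on the gene's strand, with the paired site in capitals.
Cdkn1a, chr17:29090729-29090978, plus strand: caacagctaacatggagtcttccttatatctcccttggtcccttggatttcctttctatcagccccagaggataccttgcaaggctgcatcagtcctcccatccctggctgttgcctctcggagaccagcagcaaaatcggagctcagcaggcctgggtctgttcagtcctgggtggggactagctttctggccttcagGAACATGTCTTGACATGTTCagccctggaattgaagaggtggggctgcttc
Ccng1, chr11:40755287-40755536, minus strand: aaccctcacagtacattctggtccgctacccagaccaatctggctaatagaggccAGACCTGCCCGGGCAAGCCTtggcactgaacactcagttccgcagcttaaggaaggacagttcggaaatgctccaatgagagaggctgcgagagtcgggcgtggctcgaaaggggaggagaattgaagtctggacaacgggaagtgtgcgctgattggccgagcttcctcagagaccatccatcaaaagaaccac
Bax, chr7:45466899-45467148, minus strand: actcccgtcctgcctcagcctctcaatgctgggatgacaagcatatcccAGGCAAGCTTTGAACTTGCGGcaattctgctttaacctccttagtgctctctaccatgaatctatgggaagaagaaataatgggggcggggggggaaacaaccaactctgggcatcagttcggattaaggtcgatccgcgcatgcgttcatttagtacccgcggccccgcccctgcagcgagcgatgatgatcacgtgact

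The Cdkn1a site, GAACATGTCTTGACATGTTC, begins 51 bases before the start and has 1 mismatch, and the window of a second Cdkn1a start site, chr17:29093519-29093768, holds no unit. The Ccng1 site, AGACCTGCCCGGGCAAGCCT, begins 195 bases before the start and also has 1 mismatch. The Bax site, AGGCAAGCTTTGAACTTGCGG, begins 201 bases before the start and has 2 mismatches, with 1 base between its units. A perfect unit was present in 4 of the 11 windows, each of another member, against 7.13% of all windows. The 4 were the genes above and Mdm2, whose unit is in capitals within 30 bases of its minus-strand window at chr10:117710759-117711008.
Mdm2: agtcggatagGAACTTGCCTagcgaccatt

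The depth of the libraries sets the precision of what follows. Total counts ran from 8000722 to 28045645 in the ES libraries and were 12126941 in wild-type MEF and 18631736 in MEF RepB. Every member had at least 388 reads in each ES library, whereas in MEF the lowest member, Eda2r, had 16 and 184 reads. The fibroblast label was checked against markers: in MEF the 10 fibroblast markers summed to 39409 CPM (counts scaled to library size by the TMM method) in wild type and 33029 in RepB, and the 6 pluripotency and 5 cardiac markers each summed to less than 1 CPM. That sum was mostly collagen genes, with Col1a1 at 22403 and Col1a2 at 12079 CPM in wild-type MEF, and the same markers summed to 17529 to 32642 CPM in the ES libraries. Other fibroblast markers were low: Dcn (3.19 and 0.256 CPM in wild-type and RepB MEF), Lum (0.431 and 0) and Postn (77.7 and 85.5) all lay below the wild-type ES libraries, whose lowest values were 172, 163 and 971 CPM. Thy1, a fibroblast surface marker, had 117 reads in wild-type MEF and 0 in MEF RepB. The ES cultures were mixtures: pluripotency markers summed to 143 to 169 CPM in wild type, 409 to 560 CPM in RepB+/- and 355 to 423 CPM in RepB-/-. Cardiac markers summed to 416 to 468, 195 to 215 and 138 to 151 CPM in the same order.

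In MEF, most p53 target genes stood higher in the RepB library than in the wild-type library. Of the 10 members, 6 were at least 1.5-fold higher in RepB (Cdkn1a, Mdm2, Ccng1, Trp53inp1, Zmat3 and Eda2r) and 0 were 1.5-fold lower, while 12.1% of all 11680 measured genes were that much higher and 12.8% that much lower. At 2-fold the count was 5 of 10, against 3.61% of all genes. The median ratio of the members was 1.99 and that of all measured genes 1.02. With 1 library each there is no replicate check and no test, and the intervals given are exact 95% intervals that cover counting error only. Fewer cells of a type and less RNA per cell cannot be told apart in such bulk libraries.

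**Figure D1:**
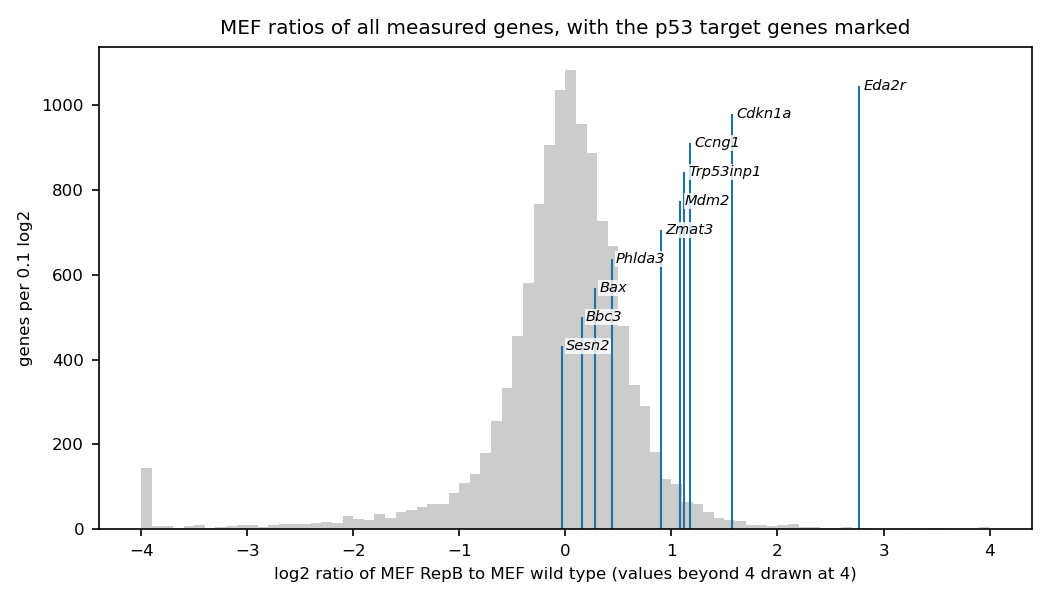
Distribution of the log2 ratio of MEF RepB to wild-type MEF over the 11680 genes with at least 1 CPM on average; the y axis counts genes per 0.1 log2 and lines mark the 10 p53 target genes at staggered heights for legibility. Eda2r and Cdkn1a lie far to the right, 4 members lie between 0.90 and 1.18, and Sesn2, Bbc3, Bax and Phlda3 lie within the bulk of all genes.

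Cdkn1a encodes the cyclin-dependent kinase inhibitor through which p53 arrests the cell cycle, and its level was 68.9 CPM in wild-type MEF (799 reads) and 205 CPM in MEF RepB (4002 reads). The ratio was 2.98 (2.76 to 3.22), above that of 99.1% of measured genes. Ccng1, which encodes the atypical cyclin G1, stood at 62.5 and 141 CPM, a ratio of 2.26 (2.08 to 2.46). Both cell cycle members were thus higher in RepB by more than counting error. The Mdm2 level was 55.1 CPM in wild-type MEF and 117 CPM in RepB, a ratio of 2.12 (1.94 to 2.32).

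The members tied to apoptosis were less alike. Trp53inp1, whose protein works with p53 in stress-induced cell death, had 94 reads (8.11 CPM) in wild-type MEF and 343 (17.6 CPM) in RepB, a ratio of 2.17 (1.72 to 2.76). Bax, the BCL2 family protein that permeabilises mitochondria, stood at 81.1 and 98.4 CPM, a ratio of 1.21 (1.12 to 1.31). Bbc3 encodes PUMA, which sets Bax free to act, and its ratio of 1.11 (0.940 to 1.32; 18.6 and 20.6 CPM) had an interval that spans 1. Phlda3, whose protein holds back the survival kinase Akt, stood at 133 and 180 CPM, a ratio of 1.35 (1.27 to 1.44). Trp53inp1 is the only one of these 4 past 1.5-fold.

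Zmat3, an RNA-binding zinc finger protein gene, stood at 35.5 CPM in wild-type MEF and 66.4 CPM in RepB, a ratio of 1.87 (1.67 to 2.09). Sesn2, a stress-induced gene whose protein restrains growth signalling, stood at 46.9 and 45.8 CPM, a ratio of 0.977 (0.877 to 1.09) that cannot be told from 1 by counting. Eda2r, a receptor of the tumour necrosis factor receptor family for an ectodysplasin isoform, had the highest ratio of the members at 6.84 (4.10 to 12.2), from 1.38 CPM in wild-type MEF to 9.44 CPM in RepB. Its interval is wide because only 16 wild-type reads stand behind it.

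The MEF libraries also differed along several chromosomes, and those values stand beside the members they touch. The median ratio of RepB to wild type was 1.26 over the 586 measured genes of chromosome 10, which carries Mdm2, and 1.31 over 565 genes of chromosome 3, which carries Zmat3, with 30.4% and 31.9% of genes at least 1.5-fold higher. On chromosomes 17 (Cdkn1a), 11 (Ccng1) and X (Eda2r) the medians were 0.964, 1.03 and 0.981. On chromosome 4, which carries Trp53inp1 and Sesn2, the median was 0.862, on chromosome 7 (Bax, Bbc3) 0.912 and on chromosome 1 (Phlda3) 0.902. The share of 129 reads moved with these chromosomes: its median over genes went from 50.9% in wild type to 65.9% in RepB on chromosome 10, from 50.8% to 60.5% on chromosome 3, from 56.9% to 34.2% on chromosome 4, from 46.1% to 65.4% on chromosome 7 and from 41.0% to 49.1% on chromosome 1. It was 50.0% and 50.1% on chromosome 11 and 49.8% and 49.5% on chromosome 17. The part of these chromosome-wide differences in the members' ratios was not tested.

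Reads from both parental chromosomes were available for the autosomal members in MEF. Cdkn1a was higher in RepB from both alleles, with ratios of 2.76 (2.42 to 3.16) for 129 and 3.02 (2.64 to 3.46) for CAST reads. Ccng1 ratios were 2.78 (2.22 to 3.52) and 2.46 (1.89 to 3.25), and Zmat3 ratios were 2.32 (1.86 to 2.91) and 1.89 (1.41 to 2.57). In each of these 3 genes the intervals of the alleles overlap. Mdm2 ratios were 2.74 (1.90 to 4.05) for 129 and 1.53 (1.02 to 2.33) for CAST reads, and its 129 share went from 50.7% (of 71 allelic reads) to 64.8% (of 256), next to 50.9% and 65.9% for its chromosome. Sesn2, level in all reads, was lower from 129 (0.595, 0.463 to 0.764) and higher from CAST (1.32, 1.06 to 1.64), and its 129 share went from 51.6% to 32.5%, next to 56.9% and 34.2% for chromosome 4. Trp53inp1 rests on 8 reads of each allele in wild type, against 35 and 54 in RepB. Bax ratios were 1.92 (1.34 to 2.81) for 129 and 1.10 (0.759 to 1.61) for CAST reads. Bbc3 had few allelic reads, 3 and 18 from 129 (a ratio of 3.57, 1.04 to 18.9) and 9 and 8 from CAST (0.528, 0.177 to 1.54). Its 129 share went from 25.0% to 69.2%, next to 46.1% and 65.4% for chromosome 7. Phlda3 ratios were 1.78 (1.10 to 3.00) and 1.73 (1.34 to 2.24), both above its ratio in all reads of 1.35. Its 129 share was 21.7% in wild type and 22.3% in RepB, next to 41.0% and 49.1% for chromosome 1. Allelic ratios were scaled by total depth, and the part of reads given to an allele differed between the libraries. For Phlda3 it was 106 of 1546 reads in wild type and 310 of 3517 in RepB. Allelic ratios can therefore differ from those of all reads.

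Genes that control p53 gave a median ratio of 0.998 between the MEF libraries, beside 1.02 for all genes. Of 15 measured regulators, 1 was at least 1.5-fold higher and 1 lower, beside 12.1% and 12.8% of all genes. Trp53, which encodes p53 itself, stood at 239 and 236 CPM, a ratio of 0.989 (0.943 to 1.04). Mdm4, an inhibitor of p53 related to Mdm2, had a ratio of 1.04 (0.927 to 1.16). Cdkn2a, whose Arf product blocks Mdm2, had a ratio of 0.929 (0.891 to 0.968). The kinase gene Atm (0.738, 0.647 to 0.843) and the ubiquitin ligase gene Rchy1 (1.34, 1.16 to 1.56) had intervals that leave out 1 without reaching 1.5-fold. The regulator that was higher, Ppm1d (1.56, 1.30 to 1.87), encodes a phosphatase that shuts p53 signalling off and is a p53 target too, and the lower one, Hipk2 (0.529, 0.473 to 0.591), encodes a kinase that phosphorylates p53.

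Other known p53 targets were mixed in MEF. Of 32 measured, 9 were at least 1.5-fold higher and 5 lower, beside 12.1% and 12.8% of all genes, with a median ratio of 1.24. The higher ones were led by Perp, a desmosome gene linked to p53-dependent apoptosis (2.80, 2.49 to 3.14), and by the lipid transfer gene Pltp (2.61, 2.38 to 2.86) and the adenylate kinase gene Ak1 (2.44, 2.26 to 2.63). Next came the T-cell costimulation gene Cd80 (2.16, 1.28 to 3.80) and the DNA synthesis genes Rrm2b (2.09, 1.37 to 3.28) and Polk (1.89, 1.55 to 2.32), while the repair genes Xpc (0.895, 0.773 to 1.04) and Ercc5 (1.20, 1.05 to 1.37) did not reach 1.5-fold. The lower ones were led by Dcxr (0.236, 0.173 to 0.319) and Steap3 (0.450, 0.399 to 0.508), and Tap1 (0.647, 0.549 to 0.762) was lower too. The last of the 5, Sfn (0.535, 0.267 to 1.07) and Pmaip1 (0.623, 0.327 to 1.19), had few reads and intervals that span 1. The other examples were chosen after their values were seen, the higher ones in order of size and Xpc and Ercc5 for their function. Among other CDK inhibitors 0 of 6 were higher and 1 lower, Cdkn1c (0.407). Of 16 cyclin, CDK and pocket protein genes 2 were higher, Ccnb1 (1.65) and Cdk1 (1.64), and 2 lower, Ccnd2 (89 reads and 3 reads) and Cdk6 (0.624). Of 11 BCL2 family genes 0 were higher and 2 lower, Bok (0.596) and Pmaip1 (21 and 22 reads), which is also counted among the targets above.

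Markers of other cells moved between the MEF libraries as well. Of 9 measured fibroblast markers 0 were at least 1.5-fold higher and 4 were lower in RepB: Thy1, Dcn, Fbn1 (0.383) and Pdgfra (0.616). Among all measured genes 12.1% were that much higher and 12.8% that much lower. The neural markers Tubb3 (0.260) and Nes (0.579) and the myeloid marker Csf1r (0.293) were lower too, with Sox1, Pax6, Ptprc and Spi1 at 0 reads in both libraries. The part of cell composition in the members' ratios was not tested.

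In differentiated ES cells the members differed little between genotypes, and most changes did not pass the test. In RepB-/- against wild type, 2 of the 10 members passed the test (edgeR quasi-likelihood F-test, adjusted p of 0.05 over 15149 genes), against 12.8% of all genes: Eda2r rose, as did 7.27% of all genes, and Bbc3 fell, as did 5.49%. In RepB+/- against wild type 0 members passed where 16.0% of all genes did, with 2 members, again Bbc3 and Eda2r, at an unadjusted p under 0.05 (31.1% of all genes) and 0 called by DESeq2 (13.9%). Both genes passed there when low counts were not filtered (edgeR adjusted p = 0.0427 for Bbc3 and 0.0171 for Eda2r, with 15.2% of all genes called) and without RepB+/- replicate 2 (0.0193 and 0.0098, with 16.8%). Between RepB-/- and RepB+/- 0 members passed, against 0.0858% of all genes, with 0 at an unadjusted p under 0.05 (6.62% of all genes) and 0 called by DESeq2 (0.243%). DESeq2 called the same 2 members in RepB-/- against wild type, where it called 11.2% of genes. The members' median log2 fold change was -0.02 in RepB+/- and -0.07 in RepB-/-, and that of all genes was 0.02 and 0.01. The wild-type libraries serve both comparisons.

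**Figure D2:**
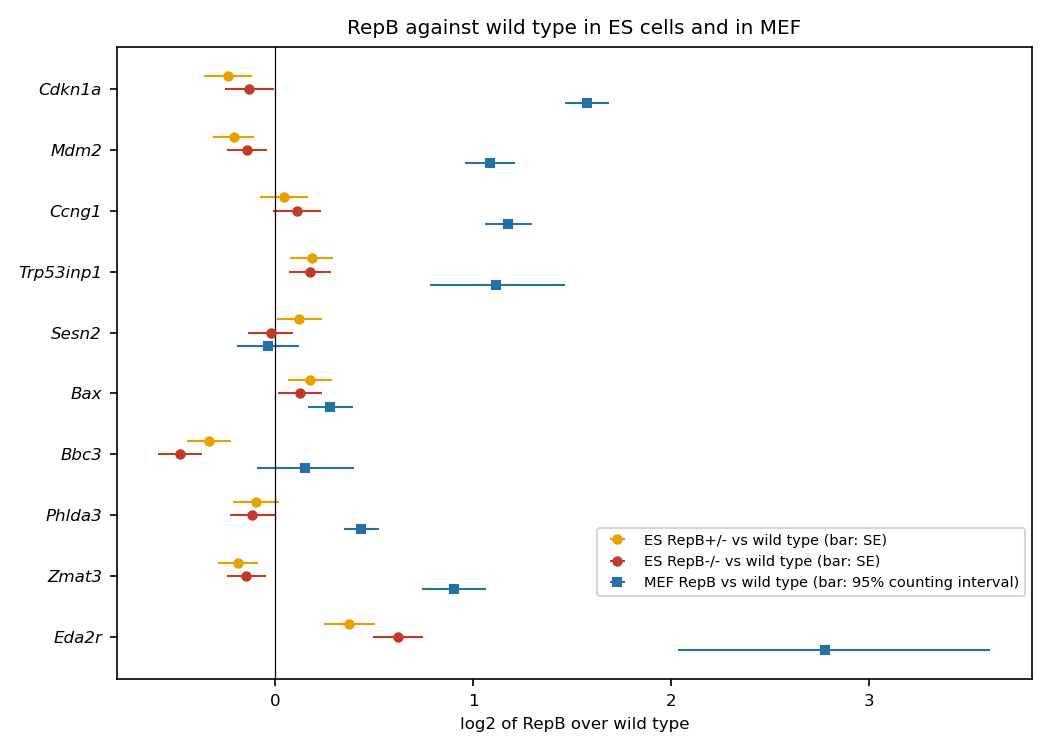
Log2 ratio of RepB to wild type for the 10 p53 target genes (x axis) in RepB+/- and RepB-/- ES cells (circles, bars give the standard error of the edgeR fit over 6 libraries) and in MEF (squares, bars give the 95% counting interval of 1 library against 1). ES values lie between -0.48 and 0.62, whereas 6 MEF values lie at or above 0.90.

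Cdkn1a stood at 420 and 437 CPM in the wild-type ES libraries, 335 and 394 CPM in RepB+/- and 383 and 402 CPM in RepB-/-. All 4 RepB libraries lay below both wild-type libraries, and the RepB genotypes overlapped each other. The log2 fold changes, -0.24 (SE 0.12, edgeR adjusted p = 0.203) and -0.13 (SE 0.12, adjusted p = 0.534), did not pass. Ccng1 stood at 426 and 376 CPM in wild type, 431 and 396 CPM in RepB+/- and 430 and 437 CPM in RepB-/-, with log2 fold changes of 0.05 (SE 0.12) and 0.11 (SE 0.12).

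Mdm2 stood at 154 and 166 CPM in wild type, 136 and 140 CPM in RepB+/- and 148 and 142 CPM in RepB-/-. Its RepB libraries all lay below the wild-type libraries, but neither log2 fold change passed (-0.21, SE 0.10, edgeR adjusted p = 0.181, and -0.14, SE 0.10, adjusted p = 0.400). Zmat3 was placed the same way, at 135 and 136 CPM in wild type, 117 and 121 CPM in RepB+/- and 120 and 125 CPM in RepB-/-, with log2 fold changes of -0.19 (SE 0.10) and -0.14 (SE 0.10) that did not pass. Cdkn1a, Mdm2 and Zmat3 thus lay below wild type in every RepB ES library and above it in MEF RepB. Trp53inp1 and Eda2r, in contrast, lay above wild type in every RepB library of both cell types. Both RepB-/- libraries lay below both wild-type libraries in 27.9% of all genes.

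Bbc3 stood at 77.9 and 82.6 CPM in the wild-type ES libraries, 58.7 and 69.5 CPM in RepB+/- and 56.1 and 59.1 CPM in RepB-/-. The groups of wild-type and RepB libraries did not overlap. Bbc3 fell in RepB-/- by 0.48 on the log2 scale (SE 0.11, edgeR adjusted p = 0.00991), and in RepB+/- its log2 fold change of -0.33 (SE 0.11, adjusted p = 0.0554) just missed the threshold. Leaving out wild-type replicate 2 ended the RepB-/- call of Bbc3 (edgeR adjusted p = 0.113), as did leaving out RepB-/- replicate 1 (0.0776). Bax, the partner in apoptosis, stood at 121 and 126 CPM in wild type, 134 and 145 CPM in RepB+/- and 146 and 123 CPM in RepB-/-, with overlap in RepB-/- and no call.

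Eda2r stood at 66.5 and 57.7 CPM in the wild-type ES libraries, 89.7 and 70.3 CPM in RepB+/- and 90.8 and 100.4 CPM in RepB-/-. Every RepB library lay above both wild-type libraries. Eda2r rose in RepB-/- by 0.62 on the log2 scale (SE 0.13, edgeR adjusted p = 0.00426), and in RepB+/- its log2 fold change was 0.38 (SE 0.13, adjusted p = 0.0555). Leaving out wild-type replicate 2 ended the RepB-/- call of Eda2r (edgeR adjusted p = 0.0783). Eda2r is the only X-linked member.

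The remaining members varied within narrow bounds. Trp53inp1 stood at 92.7 and 85.0 CPM in wild type, 107 and 94.2 CPM in RepB+/- and 99.3 and 102 CPM in RepB-/-, above wild type in all 4 RepB libraries with log2 fold changes of 0.19 and 0.18 (SE 0.11 each) that did not pass. Sesn2 ran from 42.5 to 50.1 CPM and Phlda3 from 92.5 to 116 CPM over the 6 libraries, and both had overlapping wild-type and RepB-/- libraries. Their log2 fold changes lay between -0.11 and 0.12 (SE 0.11 to 0.12). For 4 members both RepB+/- libraries were higher than both wild-type libraries and for 5 lower, where 30.5% and 28.0% of all genes did so. The same counts for RepB-/- were 3 and 4 members, beside 31.5% and 27.9% of all genes.

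The gene for p53 itself and some of its regulators passed the test in ES cells. Of 17 regulators 4 rose and 0 fell in RepB+/-, where 9.12% of all genes rose and 6.84% fell. In RepB-/- 2 regulators rose and 1 fell, where 7.27% of all genes rose and 5.49% fell. Trp53 stood at 118 and 100.4 CPM in wild type, 141 and 167 CPM in RepB+/- and 120 and 135 CPM in RepB-/-, and rose by 0.49 on the log2 scale in RepB+/- (SE 0.12, edgeR adjusted p = 0.0135). Leaving out replicate 2 of wild type (edgeR adjusted p = 0.193) or of RepB+/- (0.0661) ended that call. Chek2, a damage-response kinase that phosphorylates p53, rose in RepB+/- by 0.80 (SE 0.16, adjusted p = 0.00417) and in RepB-/- by 0.70 (SE 0.16, adjusted p = 0.00874). The kinase genes Atr (0.48) and Chek1 (0.61) rose in RepB+/-, Cdkn2a rose in RepB-/- (0.52), and Ppm1d fell there by 0.45 on the log2 scale. Fewer regulators were called in RepB+/- without either wild-type library, and in RepB-/- without any 1 library of that comparison. The share of all genes called fell in the same fits, each of which leaves 1 library in a genotype. Mdm4 had log2 fold changes of -0.09 (SE 0.11) in both.

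Few other p53 targets passed the test in ES cells. Of 35 genes 2 rose and 3 fell in RepB+/-, where 16.0% of all genes passed, and 2 rose and 2 fell in RepB-/-, where 12.8% did, shares near those of all genes. The epoxide hydrolase gene Ephx1 rose in RepB-/- (0.60, SE 0.10, edgeR adjusted p = 0.00138), as did the phosphatase gene Ptprv (0.47, SE 0.12, adjusted p = 0.0218). The antigen peptide transporter gene Tap1 fell by 0.53 in RepB+/- and 0.41 in RepB-/- on the log2 scale, and Pltp, which was higher in MEF RepB, fell by 0.59 and 0.50. With 1 library left out fewer of the 35 passed in RepB+/-, and the number moved both ways in RepB-/-. The share of all genes called moved with these fits too.

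Cell cycle and apoptosis genes outside the members gave these counts in ES cells, to be read against the same 16.0% and 12.8% of all genes. Of 6 CDK inhibitors other than Cdkn1a, 0 rose and 2 fell in RepB+/-, and 2 rose and 2 fell in RepB-/-. Cdkn1c, an imprinted CDK inhibitor gene, fell by 0.88 in RepB+/- (SE 0.13, edgeR adjusted p = 0.000365) and by 0.69 in RepB-/- (SE 0.13, adjusted p = 0.00208). Of 16 cyclin, CDK and pocket protein genes 4 rose and 0 fell in each genotype, led by the D-type cyclin genes Ccnd1 (0.85 and 0.62) and Ccnd2 (0.82 and 0.89). Of 13 BCL2 family genes, Bid, which activates Bax, rose in RepB+/- (0.81) and in RepB-/- (0.66), and the survival gene Bcl2l1 fell by 0.35 in RepB-/-. The number of calls in each of these lists moved with 1 library left out, as did the share of all genes called. The ectodysplasin genes tested with Eda2r gave 0 calls of 3 in either genotype, with Eda, the ligand gene, at 0.57 (SE 0.21) and 0.41 (SE 0.21).

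Cell type markers moved with genotype beside all these ES values. Their counts stand beside 9.12% of all genes that rose and 6.84% that fell in RepB+/-. The shares in RepB-/- were 7.27% and 5.49%. All 6 pluripotency markers rose in both RepB genotypes, for example Nanog (1.65 and 1.36 on the log2 scale). Of 5 cardiac markers 4 fell in RepB+/- and 5 in RepB-/-, led by Myh7 (-1.40 and -2.21). Of 10 fibroblast markers 3 rose and 1 fell in each, and of 5 endoderm markers 4 rose in RepB+/- and 1 in RepB-/-. Of the 4 neural markers 2 rose and 2 fell in RepB+/- and 1 rose and 2 fell in RepB-/-, and of the 3 endothelial markers Kdr fell in both genotypes, Cdh5 fell in RepB-/- and Pecam1 rose in RepB+/-. The blood markers Spi1 (1.09 and 1.03) and Csf1r (0.56 and 0.54) rose in both. The part of these shifts in culture composition in the changes of Bbc3, Eda2r and Trp53 was not tested.

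Levels of different genes were compared per length, as RPKM (reads per kilobase of exon, scaled by library size, scaled over all 8 libraries). In wild-type ES cells Cdkn1a was the highest member at 204 ± 5.09 RPKM (SD, n = 2), then Bax at 137 ± 3.46, Ccng1 at 111 ± 10.1, Phlda3 at 74.2 ± 0.450, Mdm2 at 49.7 ± 2.50 and Bbc3 at 39.1 ± 1.47. Zmat3 (16.8 ± 0.0109), Sesn2 (16.7 ± 1.73) and Trp53inp1 (15.8 ± 1.02) followed, and Sesn2 overlapped both its neighbours. Eda2r was the lowest at 10.3 ± 1.07 RPKM. In wild-type MEF the order was another, with Bax (105) and Phlda3 (102) well above Cdkn1a (38.3), and Trp53inp1 (1.68) and Eda2r (0.267) the lowest.

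Most members were more abundant in differentiated ES cells than in MEF. The mean RPKM of wild-type ES cells over that of wild-type MEF was 38.5 for Eda2r, 9.39 for Trp53inp1, 5.49 for Ccng1, 5.33 for Cdkn1a, 3.70 for Bbc3, 3.26 for Zmat3, 2.48 for Mdm2 and 1.30 for Bax. Phlda3 (0.725) and Sesn2 (0.840) were lower in ES cells. Against MEF RepB the ratio was smaller for every member but Sesn2 (0.858), at 1.78 for Cdkn1a, 1.17 for Mdm2 and 5.62 for Eda2r. The Mdm2 level in MEF RepB, 42.6 RPKM, lay within the RepB+/- ES libraries (42.2 and 43.2). With 1 MEF library per genotype these ratios have no test. The same ratio was not computed over all genes, so the higher ES levels cannot be called particular to the members.

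**Figure D3:**
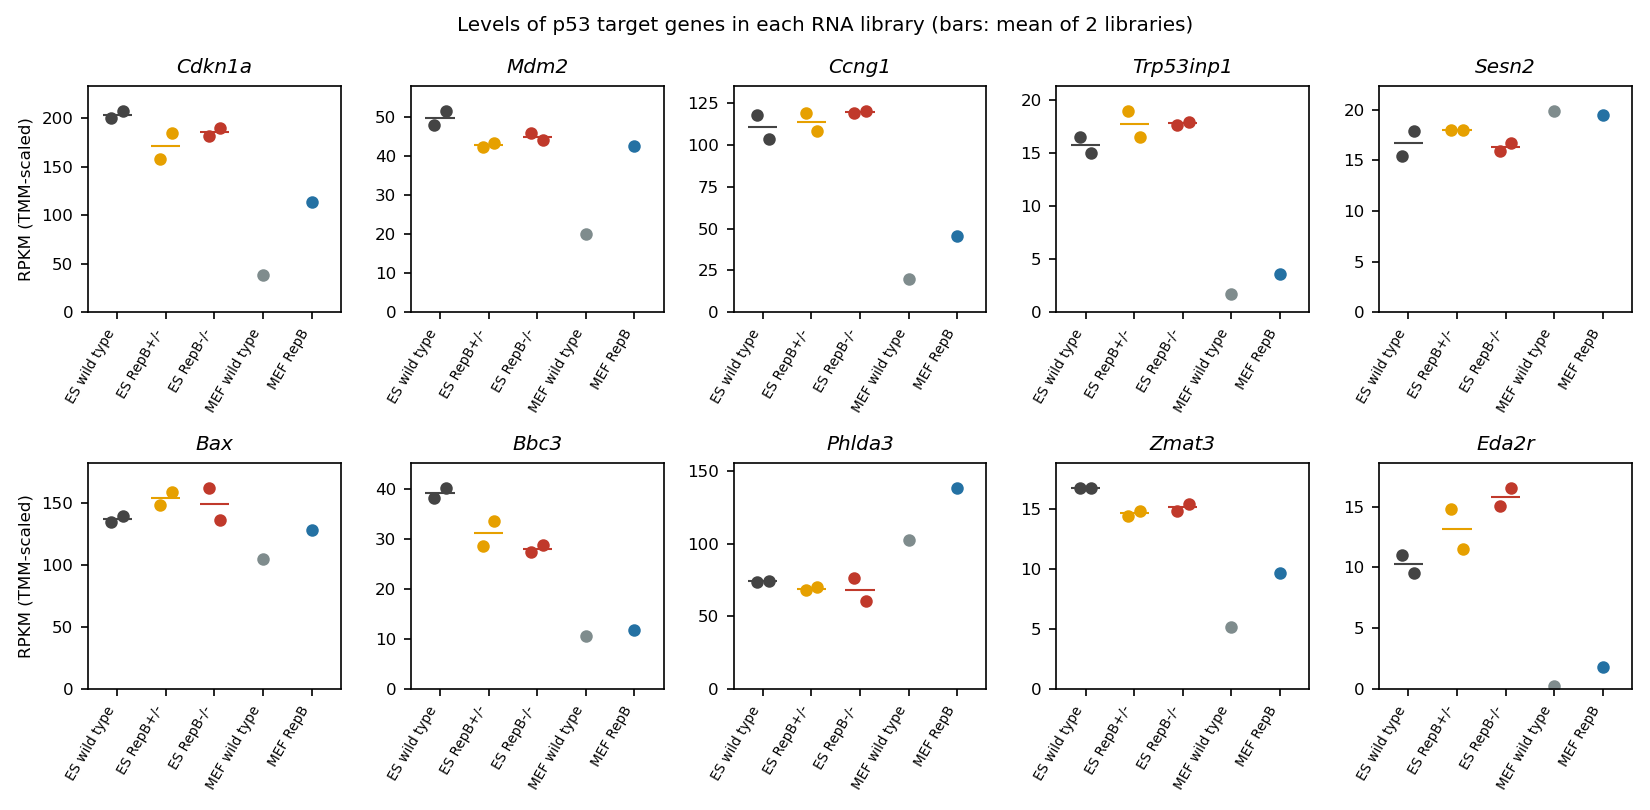
RPKM of each p53 target gene (y axis, from 0, scaled separately for each gene) in the 8 libraries by group (x axis); each point is 1 library and bars give the mean of the 2 ES libraries. The MEF RepB point lies above the MEF wild-type point in 9 of the 10 panels, all but Sesn2, and most ES points lie above both. For Bbc3 the 95% counting interval of the MEF ratio (0.940 to 1.32) spans 1. The median MEF ratio of all measured genes was 1.02, and 47.0% of them had a ratio below 0.998, that of Ep300. Many genes outside the members were thus also higher in RepB, and their exact share was not computed.

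Eda2r could be followed on each X chromosome. In wild-type ES cells 14 of 282 and 15 of 162 allelic Eda2r reads came from the 129 X, shares of 4.96% (95% Clopper-Pearson interval 2.74 to 8.19) and 9.26% (5.28 to 14.8). In RepB+/- the shares were 39.6% of 634 reads and 35.5% of 121, and in RepB-/- 35.4% of 652 and 37.2% of 516. No RepB library overlapped the wild-type libraries. On the log2 scale the 129 to CAST ratio of Eda2r rose by 3.12 in RepB+/- (SE 0.38, edgeR adjusted p = 2.71e-14 over 11597 genes) and by 2.99 in RepB-/- (SE 0.36, adjusted p = 1.82e-14).

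This shift was shared by the chromosome. Of 377 tested X-linked genes 59.7% shifted toward 129 in RepB+/- and 62.1% in RepB-/-, with medians of 2.86 and 2.91, against 2.1% and 2.24% of all genes. The median 129 share of X-linked genes was 5.34% and 6.62% in the wild-type libraries and between 31.0% and 35.8% in the RepB libraries. Wild-type cells had 0.997 ± 0.388 CPM (SD, n = 2) of Eda2r reads from the 129 X, RepB+/- cells 7.19 ± 2.30 and RepB-/- cells 8.37 ± 0.568. Reads from the CAST X were 13.1 ± 0.967, 11.8 ± 2.38 and 14.7 ± 0.198 CPM in the same order. In 129 reads both RepB genotypes lay above wild type and overlapped each other. In CAST reads RepB+/- overlapped wild type, and both RepB-/- libraries (14.5 and 14.8 CPM) lay above both wild-type libraries (13.8 and 12.5).

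**Figure D4:**
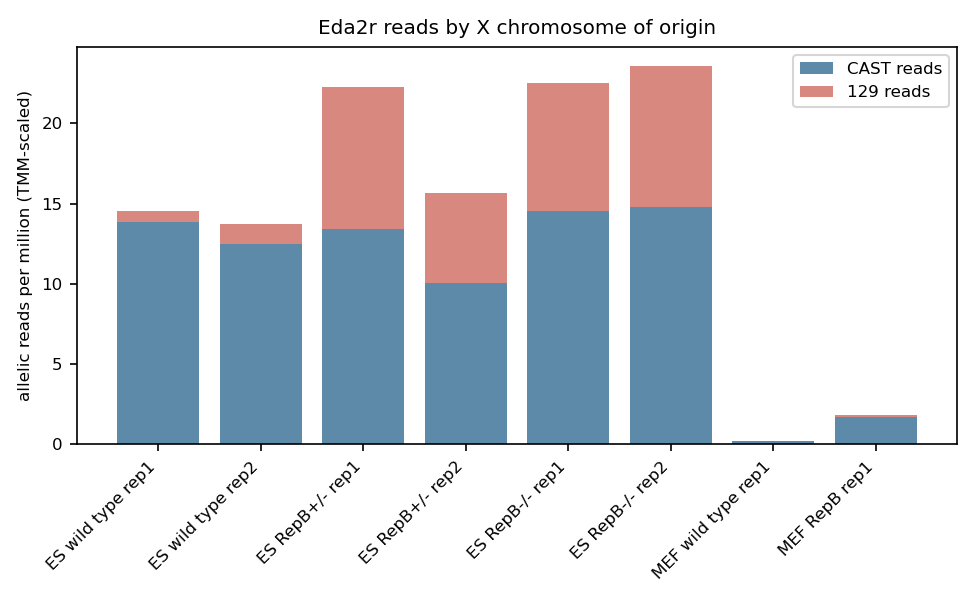
Eda2r CPM given to the CAST X (blue) and the 129 X (red) in each of the 8 libraries, stacked from 0. The 129 part is small in both wild-type ES libraries (0.723 and 1.27 CPM) and between 5.56 and 8.81 CPM in the 4 RepB ES libraries, and MEF RepB has 1.69 CPM from the CAST X.

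In MEF the higher Eda2r level was carried by the CAST X. Wild-type MEF had 0 reads from 129 and 2 from CAST, and MEF RepB had 2 from 129 and 33 from CAST, a 129 share of 5.71% (0.700 to 19.2). The median 129 share of X-linked genes was 0% in wild-type MEF and 0.438% in MEF RepB. With 2 allelic reads in wild type, a shift of the Eda2r share in MEF was not detectable at this depth.

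The autosomal members differed in the parental chromosome that their allelic reads came from in ES cells. Cdkn1a, Ccng1, Trp53inp1, Sesn2 and Zmat3 had at least 98.3% of their allelic reads from 129 in all 6 ES libraries and Mdm2 between 92.8% and 98.0%. The chromosomes of these genes had medians of at least 96.9% in ES cells, but between 34.2% and 65.9% in MEF. The ES libraries thus held almost no CAST reads there over most genes, not only over the members. Whether the ES cells carried a CAST copy of these chromosomes was not tested. Bax (32.6% to 52.0%) and Bbc3 (39.6% to 49.6%) gave reads from both, on chromosome 7, whose median lay between 51.6% and 53.3%. For Bbc3 the 129 reads were 3.32 ± 0.0990 CPM in wild type and 2.39 ± 0.499 in RepB-/-, and the CAST reads 4.18 ± 0.151 and 2.71 ± 0.117. Phlda3 stood apart from its surroundings: its 129 share was between 49.3% and 57.6%, while chromosome 1 had medians between 99.6% and 100%. Its neighbours Csrp1 (97.5%) and Tnni1 (99.3%) were almost wholly 129, and 20 of 666 chromosome 1 genes lay between 20% and 80%. The source of the CAST reads of Phlda3 was not tested.

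Genes with the most similar profile over the 6 ES libraries were sought among 11437 genes of at least 5 CPM, by the root mean square distance of centred log2 CPM. Nearest to Cdkn1a were Myo1c (0.0185), Pdk2 (0.0227), Sh3d21 (0.0228), Galns (0.0250) and Pygb (0.0250), against the spread of Cdkn1a itself of 0.122. Among the members the nearest pair was Mdm2 and Zmat3 at 0.0457, and Cdkn1a was nearest to Zmat3 at 0.0637. Eda2r (0.193) and Bbc3 (0.149) lay farthest from any other member. The mean profile of the members was nearly flat, with a spread of 0.00934. Its nearest genes were Arid4b (0.0114), Ercc5 (0.0153), Ncaph (0.0157), Mtmr9 (0.0198) and Uba7 (0.0222). All of these distances exceed that spread, so the list shows only genes that hardly varied.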

How the data were processed

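The 8 RNA-seq libraries among the 50 samples of the series were used, and 42 samples were not analysed here. In the deposited tables the authors give raw counts per gene, for all reads and for reads given to the 129 and CAST alleles, with the column layout of featureCounts and mm9 positions per the file headers. TopHat, Novoalign and featureCounts are among the tools named in the submitters' processing notes, while versions, strand setting and the handling of multiply mapping reads are not given in the sources used here. Reads from genes with near-identical copies or antisense partners may therefore be shared.

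The 6 ES libraries were fitted together in edgeR 4.0.16 (R 4.3.3): filterByExpr with a minimum count of 10 and a minimum total of 15, TMM scaling, genotype as the only term, and the quasi-likelihood F-test with Benjamini-Hochberg adjustment at 0.05 over 15149 genes. The biological coefficient of variation was 9.49%. Allelic ratios were tested in edgeR with a term for each library and an interaction of allele and genotype, for genes averaging at least 20 allelic reads. MEF ratios used TMM-scaled CPM of genes averaging at least 1 CPM, with exact 95% intervals. As molecular identifiers are not mentioned in the labels, intervals and the floor of 3 reads cover counting error only. DESeq2 1.42.0, other scalings and filters and leaving out each library were alternatives. The fits were also run on simulated counts with the same dispersion for every gene and only counting error between alleles. That setting is simpler than these libraries, so it checks the code and not the calls reported here.

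The members and gene lists were chosen with earlier results of these data known, and so support nothing by their choice. All members are named, and of each list up to 4 called genes with the lowest adjusted p in ES cells, with Trp53, Mdm4 and Cdkn2a always. Genes named from the MEF ratios, the other called genes named from the lists in ES cells, and the neighbours of Phlda3 were picked outside this rule, with their values known. The rule for paired p53 units was set after seeing the promoter windows.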

Additional observations from a re-analysis of the deposited data

Results flagged for a closer look

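Cdkn1a, Mdm2 and Zmat3 lay in opposite directions in the 2 cell types, but not all members did. Trp53inp1 and Eda2r lay above wild type in every RepB ES library and in MEF RepB (ratios of 2.17 and 6.84). Bbc3 lay below wild type in every RepB ES library, and its MEF ratio of 1.11 had an interval that spans 1. In MEF RepB their levels were 2.98, 2.12 and 1.87 times those of wild-type MEF, whereas each of the 4 RepB ES libraries lay below both wild-type ES libraries, with log2 fold changes between -0.24 and -0.13 that did not pass the edgeR test. Both RepB+/- libraries lay below both wild-type libraries in 28.0% of all genes, and both RepB-/- libraries in 27.9%. The share for all 4 RepB libraries at once was not computed. The median MEF ratio was 1.26 on chromosome 10 (Mdm2), 1.31 on chromosome 3 (Zmat3) and 0.964 on chromosome 17 (Cdkn1a). The difference between the cell types was not tested, since MEF has 1 library per genotype.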

How the results depend on the processing

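In RepB+/- against wild type the count of members called by edgeR was 2 with no filter on low counts, 2 with the replicate block and between 0 and 2 with 1 library left out (2 without RepB+/- replicate 2), and in each case of 2 the genes were Bbc3 and Eda2r. The share of all genes called moved with these settings, at 15.2%, 23.9% and between 5.05% and 16.8% in the same order, beside 16.0% as reported. In RepB-/- against wild type the count was 0 to 2 with 1 library left out. The share of all genes called there was 4.39% to 18.0% with 1 library left out, 12.9% with no filter and 20.9% with the replicate block, beside 12.8% as reported. The count was 2 with each other setting, including DESeq2, RLE scaling and the replicate block. The replicate number does not pair the samples by the labels, and same-numbered libraries deviated together with correlations of 0.108, 0.0696 and 0.186. Some log2 fold changes that were never called changed sign with 1 library left out. In RepB+/- against wild type Ccng1 ran from -0.043 to 0.13. In RepB-/- against wild type Sesn2 ran from -0.14 to 0.0886, Bax from -0.0032 to 0.25 and Phlda3 from -0.29 to 0.0382. In RepB-/- against RepB+/- Cdkn1a ran from -0.0041 to 0.24, Trp53inp1 from -0.0867 to 0.0955 (0.0011 with no filter), Bax from -0.18 to 0.0722 and Phlda3 from -0.19 to 0.14. The Eda2r allelic change stayed between 2.47 and 3.56 on the log2 scale with 1 library left out. As shares, the RepB libraries exceeded wild type by 30.5 (RepB+/-) and 29.2 (RepB-/-) percentage points, where the exact two-sided permutation test of 2 against 2 libraries gave p = 0.333, the smallest it can give. In MEF 6 members stayed at least 1.5-fold higher under total-count and RLE scaling, and total-count scaling moved the median log2 ratio of all genes to 0.16 and 18.1% of genes past 1.5-fold. The causes of these differences were not tested.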
